A study of Mus musculus with 194 samples.

Results

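The 9 genes described here encode 5 neuropeptide precursors and the 4 opioid receptors: prodynorphin (Pdyn), proenkephalin (Penk), prepronociceptin (Pnoc), the substance P precursor (Tac1), the CART peptide precursor (Cartpt), and the mu (Oprm1), delta (Oprd1), kappa (Oprk1) and nociceptin (Oprl1) receptors. They were chosen by name, for their roles in opioid and striatal peptide signalling, and are 9 of the 19363 genes in the count table. 3′-RNA-seq was made from 5 structures of the reward circuitry of male C57BL/6OLAHSD mice, 6 to 7 weeks old: the dorsal striatum (DS) and nucleus accumbens (NAc), the limbic cortex (LCtx, medial prefrontal and cingulate), the amygdala (Amy) and the lateral hypothalamus (LH). The table holds 166 mouse samples of 48 animal numbers, and 28 of these samples were sequenced in more than 1 run (named as in the labels, such as run0194).

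Saline injections on 3 days preceded the cocaine, and all cocaine was given at 20 mg/kg i.p. Acute mice received cocaine for the first time. Repeated mice (labelled chronic) received the last of 5 daily doses. Challenge mice received a single dose after 21 days of abstinence from repeated cocaine. Tissue was taken at 1, 2 or 4 hr after the dose, or at 0 hr from mice taken from their home cage with no treatment on that day, and whether the naive ones had received the saline is not clear from the methods. The 0 hr mice of the acute experience were thus cocaine naive, those of the repeated experience had received 4 doses and were 24 hr past the last, and those of the challenge experience were abstinent. Mice of different experiences came from different cohorts (cohort 20 acute, 16 and 17 repeated, 18 challenge), so cohort and experience cannot be told apart. No saline-injected mice were killed at matched times, so cocaine cannot be told apart from injection and handling in the time courses.

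Opioid peptides are cut from large precursors, packed in dense-core vesicles and released on activity. Enkephalins act mainly on delta and mu receptors, dynorphins on the kappa receptor and nociceptin on its own receptor, and all 4 receptors couple to inhibitory G proteins. In the striatum, Penk is the classical transcript of indirect-pathway projection neurons, whereas Pdyn and Tac1 mark direct-pathway neurons. Cartpt was named for its regulation by cocaine and amphetamine. Pdyn transcription is a textbook target of CREB, the factor that binds the cAMP response element TGACGTCA, and kappa receptors on dopamine terminals reduce dopamine release.

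The gene coordinates on GRCm38.p6 are chr2:129686549-129699938 for Pdyn, chr4:4133536-4138815 for Penk, chr14:65400673-65425564 for Pnoc, chr6:7555061-7562978 for Tac1 and chr13:99898483-99910179 for Cartpt. The receptors lie at chr10:6758593-7038209 (Oprm1), chr4:132110188-132144486 (Oprd1), chr1:5588450-5606134 (Oprk1) and chr2:181715000-181720985 (Oprl1). RefSeq promoters, 250 bases before to 50 after the start on GRCm38.p6, were at hand for 6 members, and the 3 printed are the peptide genes among them, all with called differences between cocaine experiences. Capitals mark the CREB motif, searched on both strands as the whole element TGACGTCA and as its shorter sites TGACG and CGTCA, which overlap within a whole element. Of 2 Pdyn promoters listed, the one at the gene's outer start is printed, chr2:129699889-129700188 (minus strand). The promoter of Tac1 is at chr6:7554811-7555110 (plus strand) and that of Cartpt at chr13:99900634-99900933 (minus strand).
Pdyn: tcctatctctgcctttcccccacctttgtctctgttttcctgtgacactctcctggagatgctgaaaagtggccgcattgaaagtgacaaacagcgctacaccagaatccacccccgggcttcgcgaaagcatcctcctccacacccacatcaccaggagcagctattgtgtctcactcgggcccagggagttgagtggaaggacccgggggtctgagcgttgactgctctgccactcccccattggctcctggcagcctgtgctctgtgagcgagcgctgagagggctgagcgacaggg
Tac1: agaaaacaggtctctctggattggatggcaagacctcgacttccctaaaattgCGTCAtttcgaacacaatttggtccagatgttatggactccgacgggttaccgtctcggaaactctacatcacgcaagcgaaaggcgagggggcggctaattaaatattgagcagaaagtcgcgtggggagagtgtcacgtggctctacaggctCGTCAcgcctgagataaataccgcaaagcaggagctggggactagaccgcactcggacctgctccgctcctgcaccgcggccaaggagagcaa
Cartpt: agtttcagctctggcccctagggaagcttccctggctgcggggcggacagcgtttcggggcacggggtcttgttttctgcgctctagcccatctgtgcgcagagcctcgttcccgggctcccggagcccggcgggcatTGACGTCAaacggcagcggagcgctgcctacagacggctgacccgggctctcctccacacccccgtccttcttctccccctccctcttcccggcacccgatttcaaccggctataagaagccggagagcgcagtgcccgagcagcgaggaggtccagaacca
Cartpt held the whole element, with its shorter sites starting 112 and 109 bases before the start. Tac1 held CGTCA 197 and 43 bases before the start, and Pdyn held neither in these 300 bases, nor did its other listed promoter. Of 32851 RefSeq promoters of this length, 588 (1.79%) held the whole element and 6837 (20.8%) at least a shorter site, so these matches are a description of the letters.

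Libraries held 1193306 to 10367769 counts (median 3296647), and no pair of libraries was identical. Levels are given as CPM (counts scaled to 1e6 per mouse sample) with the libraries of a mouse summed, and since the method counts 3′ ends, levels are compared between samples of a gene and not between genes. Differences are log2 fold changes with their SE from edgeR's quasi-likelihood test, and a gene is called where its Benjamini-Hochberg adjusted p over all genes tested is under 0.05 and its fold change over 1.2. The structures carried their markers. The summed level of 12 striatal projection neuron markers was 12931 to 14554 CPM in the acute DS, 5906 to 7721 in the NAc and at most 1314 elsewhere. 6 hypothalamic markers summed to 11199 to 15638 CPM in the LH, but also to 888 to 1440 CPM in the Amy, against at most 38.5 in the DS, NAc and LCtx. In bulk tissue, fewer cells of a type and less RNA per cell cannot be told apart.

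Among naive mice, the peptide genes ranked the structures differently, except Pdyn and Tac1, and 66 of the 90 member-by-structure-pair contrasts were called. All 9 members passed the filter on low counts in this fit. Members were called as follows. Against the DS, 6 of 9 were called for the NAc (background: 18.7% of 13115 genes), 7 for the LCtx (41.5%), 7 for the Amy (32.4%) and 7 for the LH (43.9%). Against the NAc, 8 were called for the LCtx (37.6%), 7 for the Amy (23.7%) and 7 for the LH (39.9%). Contrasts of the LCtx gave 7 with the Amy (16.8%) and 7 with the LH (36.8%). For Amy against LH, 3 were called (15.8%). Except for Amy and LH, naive mice of different structures were sequenced in different runs, and in these contrasts run and structure cannot be told apart. All 4 naive animals gave at least 2 structures, and with the animal number as a replicate block 65 contrasts were called in this paired fit: Oprd1 for NAc against LH (adjusted p = 0.131) and Pnoc for LCtx against Amy (0.137) were lost, and Oprl1 for Amy against LH was gained.

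**Figure D1:**
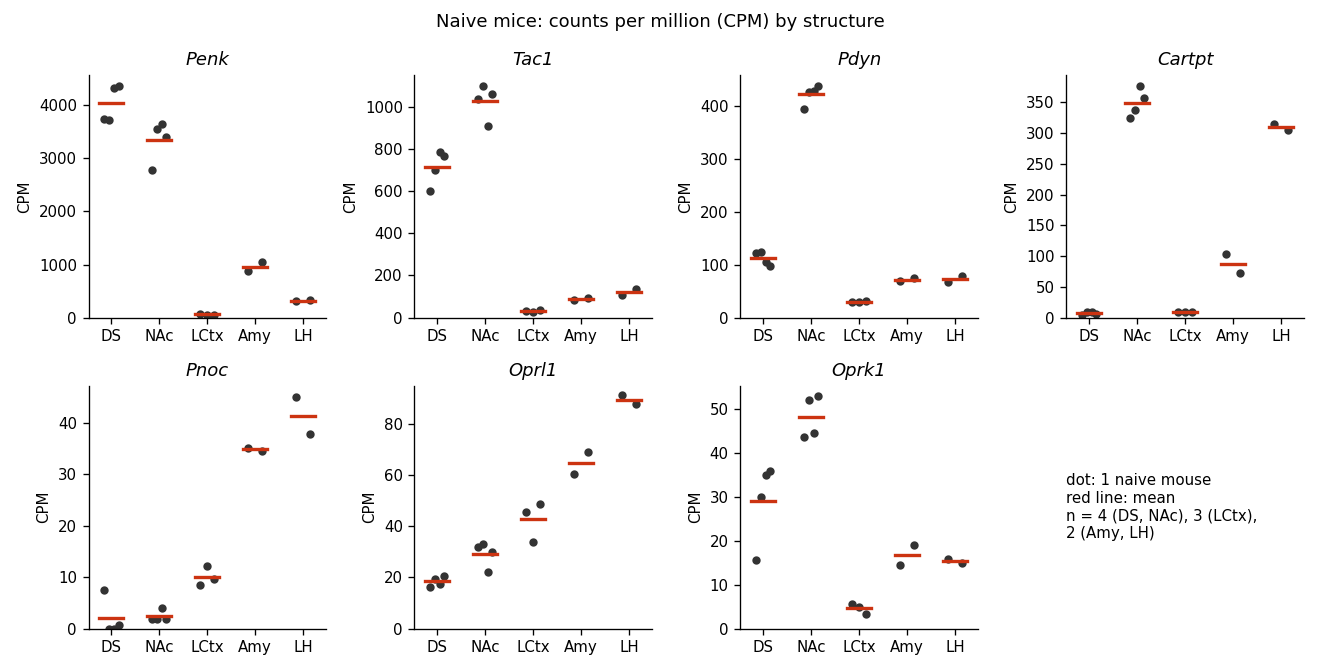
CPM of 7 members in naive mice by structure, with a dot per mouse (4 in DS and NAc, 3 in LCtx, 2 in Amy and LH) and a red line at the mean; the y axes differ between genes. Cartpt stood between 324 and 376 CPM in the NAc and between 3.73 and 9.02 in the adjacent DS, while Penk was highest in the DS.

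Penk, the enkephalin precursor, stood at 3746, 3722, 4324 and 4356 CPM in the 4 naive DS mice (4037 ± 350, SD, n = 4) and at 2786, 3551, 3650 and 3400 in the NAc (3347 ± 388). It was 873 and 1048 in the Amy, 306 and 340 in the LH, and 76.5, 54.0 and 54.8 in the LCtx. No 2 structures overlapped. The order was DS, NAc, Amy, LH and LCtx, and each neighbouring pair differed (log2 0.35 ± 0.0968, 1.80 ± 0.130, 1.56 ± 0.144 and 2.36 ± 0.140, edgeR adjusted p from 0.0128 down). Without NAc replicate 1, the difference between DS and NAc was 0.27 with an adjusted p of 0.0602.

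Pdyn, the dynorphin precursor, had its highest level in the NAc, where the mice stood at 396, 428, 430 and 439 CPM (423 ± 19.0, SD, n = 4). The DS mice stood lower, at 123, 125, 105 and 98.5 CPM (113 ± 13.02). LH mice stood at 67.4 and 78.6, Amy mice at 69.1 and 74.6, and LCtx mice at 30.7, 28.9 and 30.9. The NAc exceeded the DS by 1.85 on the log2 scale (SE 0.0843, edgeR adjusted p = 5.56e-13), the DS exceeded the LH by 0.68 (3e-05) and the LH exceeded the LCtx by 1.25 (6.23e-08). The Amy and LH overlapped and were not called apart (-0.03, 95% interval -0.30 to 0.24, adjusted p = 0.925).

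Tac1, the precursor of substance P and neurokinin A, followed the same order as Pdyn, with 1038, 1097, 910 and 1058 CPM in the NAc (1026 ± 80.8, SD, n = 4) and 602, 699, 784 and 767 in the DS (713 ± 82.7). It was 108 and 137 in the LH, 82.0 and 93.7 in the Amy, and 32.4, 26.5 and 35.0 in the LCtx. The NAc and the DS did not overlap, and the DS was lower (log2 -0.44, SE 0.0933, edgeR adjusted p = 0.00131). Over the mice of every experience and time that difference was -0.17, under the fold limit. The Amy minus LH difference was -0.48 (adjusted p = 0.0309), a call that was lost without either Amy mouse or LH replicate 2 (adjusted p from 0.0653 to 0.366).

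Cartpt split the striatum. It stood at 324, 337, 376 and 357 CPM in the NAc (349 ± 22.8, SD, n = 4) and at 3.73, 9.02, 8.94 and 6.74 CPM in the DS. The difference was the widest of any member between these structures (log2 DS minus NAc -5.54, SE 0.149, edgeR adjusted p = 3.19e-17). LH mice stood at 314 and 305, just below the NAc range and not called against it (0.16, SE 0.122, adjusted p = 0.316). The Amy mice stood at 103 and 72.8, and the LCtx mice at 9.78, 10.1 and 8.99, which were not called against the DS (adjusted p = 0.198). The DS values of replicates 3 and 4 sum libraries of run0090 and run0194. All 8 acute DS mice with both libraries read higher in run0194 (median log2 1.38), so the comparison of DS and LCtx depends on the run.

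Pnoc, the nociceptin precursor, ranked the structures in the order LH, Amy, LCtx, NAc and DS. It was 45.0 and 37.7 CPM in the LH, 35.2 and 34.6 in the Amy, 8.38, 12.2 and 9.59 in the LCtx, 1.76, 1.80, 4.08 and 1.77 in the NAc, and 7.46, 0, 0 and 0.67 in the DS. The LCtx exceeded the NAc by 2.08 on the log2 scale (adjusted p = 0.00541) and was lower than the LH (-2.03, 0.00143); DESeq2 did not call the former (0.0893). The value of 7.46 CPM came from 1 DS mouse, and the count behind the DS and NAc values was low: over the series Pnoc had at most 3 counts in 21.1% of libraries. The DS and NAc were not called apart (-0.36, adjusted p = 0.785), but without that mouse, DS replicate 1, the difference was -2.72 (0.00145). The LCtx against Amy call (-1.77, adjusted p = 0.011) was lost without any of LCtx replicate 1 or the Amy mice (0.0543 to 0.0831).

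Among the receptors, Oprk1, which binds dynorphin, stood at 43.7, 52.0, 44.5 and 52.8 CPM in the NAc and at 15.6, 29.8, 35.0 and 35.9 in the DS. It was 14.4 and 19.1 in the Amy, 15.7 and 14.9 in the LH, and 5.59, 4.88 and 3.29 in the LCtx. With the libraries of each mouse summed, the DS was lower than the NAc (-0.62, SE 0.183, adjusted p = 0.0186; 0.0516 and 0.055 without NAc replicate 2 or 4) and higher than the LH (1.02, 0.00242). The order of DS and NAc depended on the sequencing run of the DS libraries: DS replicates 3 and 4 read 27.1 and 25.6 CPM in run0090 but 46.8 and 52.5 CPM in run0194, inside the NAc range.

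Oprl1, the nociceptin receptor, ranked as its ligand did: 91.4 and 87.9 CPM in the LH, 60.4 and 69.1 in the Amy, 45.5, 33.8 and 48.8 in the LCtx, 32.0, 33.0, 22.1 and 30.1 in the NAc, and 16.3, 19.4, 17.5 and 20.5 in the DS. No neighbouring structures overlapped. The DS was lower than the LH (-2.21, SE 0.161, edgeR adjusted p = 1.03e-10) and lower than the NAc (-0.59, 0.00819). The Amy minus LH difference of -0.48 was not called without the replicate block (adjusted p = 0.0663) and was called in the paired fit (0.0336). The LCtx against Amy call (-0.56, 0.0207) was lost without either Amy mouse or LCtx replicate 2 (0.0507 to 0.217).

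Amy and LH shared sequencing run0255 in the acute and repeated mice, which gave a within-run comparison with more mice than the naive one. Both structures came from the same 16 animals, and this fit treated their libraries as separate samples, without the pairing. In it, Pnoc (-0.36, adjusted p = 1.44e-05) and Oprl1 (-0.43, 1.55e-13) were lower in the Amy, and Oprk1 was higher (0.44, 1.56e-05). Penk was higher in the Amy (1.29, 1.26e-22), and Tac1 (-0.84, 4.07e-11) and Cartpt (-1.96, 1.43e-32) were lower. For Penk and Tac1 these values average over experiences in which the difference was not of the same size. Tac1 means were 90.3 CPM in the Amy against 121 in the LH of acute mice, and 56.4 against 141 in repeated mice. Penk means were 967 against 332 in acute mice and 601 against 294 in repeated mice. Pdyn means were 74.2 CPM in the Amy against 66.7 in the LH of acute mice and 50.9 against 61.6 in repeated mice, so its value over both, -0.03 (0.732), describes neither experience.

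Oprm1 and Oprd1, the mu and delta receptors, were too thinly counted to be followed. Oprm1 had a median of 3 counts per library and Oprd1 a median of 4, and 54.6% and 42.8% of libraries held at most 3 counts. Their naive means ran from 0.12 (LCtx) to 2.16 CPM (NAc) for Oprm1 and from 0.42 (LH) to 2.68 CPM (Amy) for Oprd1, while 3 counts in a library correspond to 0.289 to 2.51 CPM. Oprm1 was called higher in the NAc than in the LCtx (3.99, SE 1.13, adjusted p = 0.00713) and in the DS than in the LCtx (3.18, 0.0407), the latter lost without any of 5 single mice of the DS or LCtx (0.0548 to 0.141). Oprd1 was called for NAc over LH (2.44, 0.0432), lost without any of 7 single mice (0.0501 to 0.185). At this depth neither receptor passed the filter on low counts in the comparisons of mice of different cocaine history, so their differences were not tested there.

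The hours after cocaine came next, with 1, 2 and 4 hr each set against 0 hr of the same experience. In the DS, no member passed the test in any experience. The fit used run0090 and run0230, 1 run per experience, with 3 to 5 mice per time point, and 7 members passed the filter (not Pnoc or Oprm1). edgeR called 0 of 7 after acute cocaine (background 2.62%), 0 after repeated cocaine (0.48%) and 0 after challenge (0.673%), and DESeq2 also called 0 in each. In the joint test over the 3 times, an unadjusted p under 0.05 was reached by 1 member after acute cocaine (Oprk1, adjusted p = 0.158), 0 after repeated cocaine and 1 after challenge (Cartpt, adjusted p = 0.456). In the same libraries 6 of 9 genes of a list of transcription factors and immediate-early genes rose in each experience, among them Egr2 (3.36 on the log2 scale after acute cocaine) and Fos (3.06 after repeated cocaine and 2.25 after challenge).

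For Pdyn, Penk and Tac1, the levels of the mice killed at each time are given. Pdyn means were 110, 103, 113 and 121 CPM at 0, 1, 2 and 4 hr of the acute experience, and the mice at 0 hr (95.5 to 125) overlapped those at 4 hr (98.8 to 150). After repeated cocaine, where each time held mice of cohorts 16 and 17, Pdyn stood at 82.8 and 92.6 CPM at 0 hr and 101 and 103 at 4 hr in cohort 16, and at 125 and 153 against 158 and 161 in cohort 17, above 0 hr in both. With cohort as a term the largest difference over the times was 0.19 (edgeR adjusted p = 0.79), and no member was called. After challenge, Pdyn means were 167, 199, 178 and 210 CPM. The 4 mice at 4 hr (190 to 235) stood above the 3 abstinent mice (151 to 187), but the difference of 0.33 (SE 0.156, 95% interval 0.02 to 0.64) was not called over all genes (edgeR adjusted p = 0.986). Penk lay between 4008 and 4525 CPM in means over the acute time points (log2 at 1 hr 0.14, 95% interval -0.03 to 0.31). Tac1 means lay between 688 and 790 CPM, and the difference at 4 hr of the acute experience was 0.19 (SE 0.0934, unadjusted p = 0.0492, edgeR adjusted p = 0.394). Oprd1 at 1 hr gave 1.12 there (SE 0.559, unadjusted p = 0.0497, edgeR adjusted p = 0.59).

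Cartpt and Oprk1, the members with an unadjusted p under 0.05 in the joint test of a DS time course, are given by mouse. Cartpt after challenge stood at 5.08 to 11.8 CPM in abstinent mice and at 11.2 to 25.1 CPM 1 hr after the dose, and the ranges overlapped (log2 1.04, SE 0.366). Oprk1 stood at 15.6 to 29.8 CPM in naive mice and at 10.7 to 16.1 CPM 1 hr after acute cocaine, also with overlap (-0.77, SE 0.229). The time courses of members were not called as different between experiences either: 0 of 7 for repeated against acute (background 0.0155%) and 0 of 7 for challenge against acute (background 0%), with 0 by DESeq2 and 0 at an unadjusted p under 0.05 in both joint tests. At single times an unadjusted p under 0.05 was reached by Oprk1 at 1 hr for repeated against acute (0.66, edgeR adjusted p = 0.976) and by Cartpt at 4 hr for challenge against acute (1.31, edgeR adjusted p = 0.704).

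**Figure D2:**
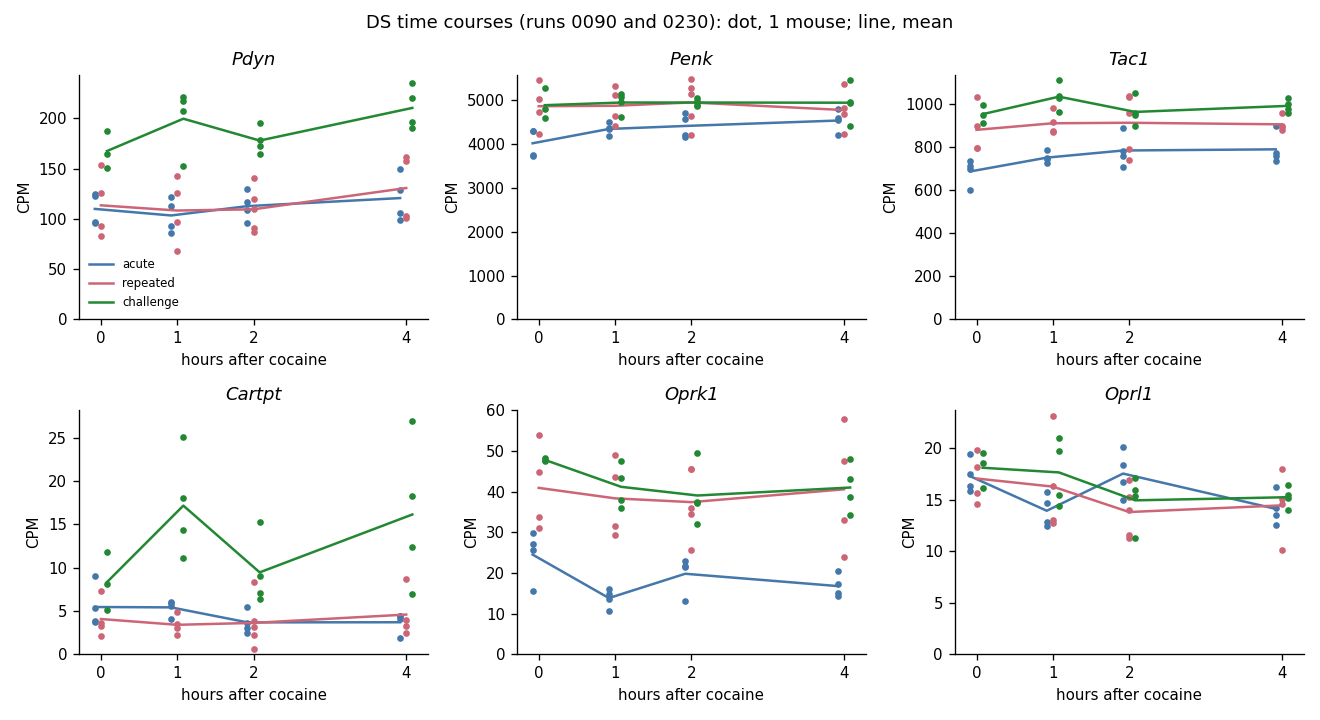
CPM of 6 members in the DS at 0, 1, 2 and 4 hr after acute, repeated or challenge cocaine (run0090 and run0230), with a dot per mouse and a line through the means; the y axes differ between genes. The Penk means of the acute line lie between 4008 and 4525 CPM, and the challenge line of Pdyn (means 167 to 210 CPM) lies above the acute line (103 to 121 CPM) at every time.

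In the other structures edgeR called 0 members in 11 of the 12 time courses. The background was 0.185%, 0.0463% and 0.0925% for acute, repeated and challenge cocaine in the NAc, 0.0462% and 0.0924% for repeated and challenge in the LCtx, 0.0853%, 0.0233% and 0.109% in the Amy, and 0.0529%, 0.0302% and 0.00755% in the LH. The filter left 9 members in the NAc, 8 in the LCtx, 8 in the LH and 7 in the Amy. An unadjusted p under 0.05 was reached by 4, 1 and 2 members of the NAc (Pnoc, Tac1, Oprm1 and Oprk1 after acute cocaine, Pnoc after repeated cocaine, and Cartpt and Oprl1 after challenge). It was reached by 0 and 0 members of the LCtx, by 0, 1 (Cartpt) and 0 of the Amy, and by 0, 2 (Pdyn and Cartpt) and 0 of the LH. DESeq2 called 0 in each of the 11. The LH challenge course rests on 1 abstinent mouse, assumed to vary like the other groups, so its 0 says little.

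The exception was the LCtx after acute cocaine, where Penk (1.32 on the log2 scale, adjusted p = 0.00465), Tac1 (1.28, 0.00735) and Cartpt (1.91, 0.0394) were called, 3 of 8 against a background of 0.3%. These calls rested on 1 mouse. LCtx replicate 2 at 1 hr stood at 262 CPM for Penk, against 50.4 to 76.5 in the 7 other acute LCtx mice, at 128 for Tac1 (others 26.5 to 35.0) and at 71.7 for Cartpt (others 7.27 to 16.2). Its Pdyn (57.9; others 26.2 to 34.2) and Pnoc (31.8; others 8.38 to 14.9) were high as well. The same library held 881 CPM of the 12 striatal markers (441 to 533 in the 6 other acute mice of the experience comparisons), 356 CPM of the central and basolateral amygdala markers Prkcd and Rspo2 (58.4 to 76.4) and 1057 CPM of 5 cortical markers (1654 to 1939). Without the libraries numbered replicate 2 in the LCtx, no member was called in this time course, and Penk was at -0.09. The Cartpt call was also lost without those numbered replicate 3 (adjusted p = 0.187) or 4 (0.0528), and Pdyn was called without those numbered replicate 1 (0.92, 0.0225). The part of the other tissue's transcripts in these calls was not tested.

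Mice of different cocaine history were then compared at all times together, with time as a factor. Outside the DS these comparisons took the libraries, of all times, that the study's sample list marks for baseline, with 2 further abstinent mice of the Amy and 1 of the NAc. They held 8 of 14 acute and 8 of 14 challenge mice of the NAc, 7 of 8 acute and 8 of 13 challenge mice of the LCtx, 9 of 15 challenge mice of the Amy, and every mouse of the other groups. Ranges below are over the mice compared. In the DS, run0194 held 8 mice of each experience in a single run. Here Pdyn and Cartpt were called in both comparisons with acute mice, 2 of the 6 members tested (background 14.3% for repeated and 17.8% for challenge), and DESeq2 called the same number. Challenge against repeated gave 0 of 6 (background 4.05%), with 3 at an unadjusted p under 0.05 (Pdyn, Penk and Tac1) and 0 by DESeq2. Pnoc, Oprm1 and Oprd1 did not pass the filter in these libraries.

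Pdyn stood lowest in acute mice, at 102 (lowest), 130 (median) and 151 CPM (highest). Repeated mice stood at 129, 173 and 188, and 5 of the 8 were above every acute mouse (0.33, SE 0.089, edgeR adjusted p = 0.00485). Challenge mice stood at 121, 193 and 254, and 6 of the 8 were above every acute mouse (0.57, SE 0.089, adjusted p = 7.53e-07). The groups overlapped in both comparisons. In other choices of DS libraries the challenge difference was 0.75 in the same mice's libraries of run0090 and run0230, 0.68 in the mice without a run0194 library and 0.71 over all mice of those runs. Those 3 choices set acute libraries of run0090 against challenge libraries of run0230, where run and experience cannot be told apart, and all 8 acute mice read lower in run0090 than in run0194 (median log2 run0194 minus run0090 0.25, against 0.03 between run0194 and run0230 in challenge mice). All 8 repeated mice with both libraries also read higher in run0194 than in run0230 (median log2 0.18). Challenge exceeded repeated mice by 0.24 in run0194 (SE 0.0894, adjusted p = 0.107, not called). Within run0230 the difference was 0.72 (adjusted p = 2.84e-11), with challenge mice at 151, 190 and 235 CPM (15 mice) and repeated mice at 67.6, 110 and 161 (17 mice, 9 of them of a cohort absent from run0194).

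The repeated difference of Pdyn depended on the cohort. The libraries of run0230 held 2 repeated cohorts: the 9 mice of cohort 16 stood at 67.6 to 110 CPM and the 8 of cohort 17 at 119 to 161 CPM, with no overlap (0.56, SE 0.0671, adjusted p = 1.7e-08). Both cohorts are labelled as repeated. Only cohort 17 was sequenced in run0194. Against acute mice in the mice without a run0194 library, which for the repeated experience are cohort 16, Pdyn was lower after repeated cocaine (-0.35, adjusted p = 0.00108), and over all mice of run0090 and run0230 it was at -0.01 (0.92). Both values set acute libraries of run0090 against repeated libraries of run0230, where run and experience cannot be told apart. The acute mice of run0194 read 85.8 to 129 CPM in run0090, against 119 to 161 in cohort 17 of run0230. 4 of the 6 members tested were called between the cohorts (background 7.34%), with Cartpt (0.99, 0.0114) and Oprk1 (0.39, 0.0107) higher and Tac1 lower (-0.27, 1.96e-05) in cohort 17. Between these cohorts 1 of 12 striatal markers was lower and 2 of 3 endothelial markers were higher in cohort 17; their part was not tested.

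Cartpt in the DS was low and read differently in each run. In run0194, acute mice stood at 9.24, 13.7 and 16.9 CPM, repeated mice at 0, 1.65 and 6.91 and challenge mice at 0, 3.43 and 11.8. All 8 repeated and 6 of 8 challenge mice lay below every acute mouse (-2.57, SE 0.44, adjusted p = 7.81e-06; -1.62, SE 0.41, 0.00222). Yet the same mice gave another picture in their other library: the 8 acute mice stood at 1.9 to 6.1 CPM in run0090, each lower than in run0194 (median log2 run0194 minus run0090 1.38), whereas 7 of 8 repeated and 7 of 8 challenge mice were higher in run0230 than in run0194. With those libraries the challenge difference turned to 1.30 (adjusted p = 1.12e-05) and the repeated one to 0.23 (0.491), and summing all libraries of each mouse gave 0.82 and -0.85. The direction of Cartpt in the DS between experiences thus changed with the run.

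Within run0230 alone, Cartpt was higher after challenge than after repeated cocaine (1.64, adjusted p = 6.52e-09), while in run0194 the same contrast was 0.95 and not called (0.29). Oprk1 was also run-dependent. In run0194 it was not called between experiences (0.12 and 0.14 against acute, adjusted p = 0.587 and 0.502), but the 8 acute mice read lower in run0090 than in run0194 (median 1.03 on the log2 scale), and across run0090 and run0230 it differed by 1.05 and 1.15.

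**Figure D3:**
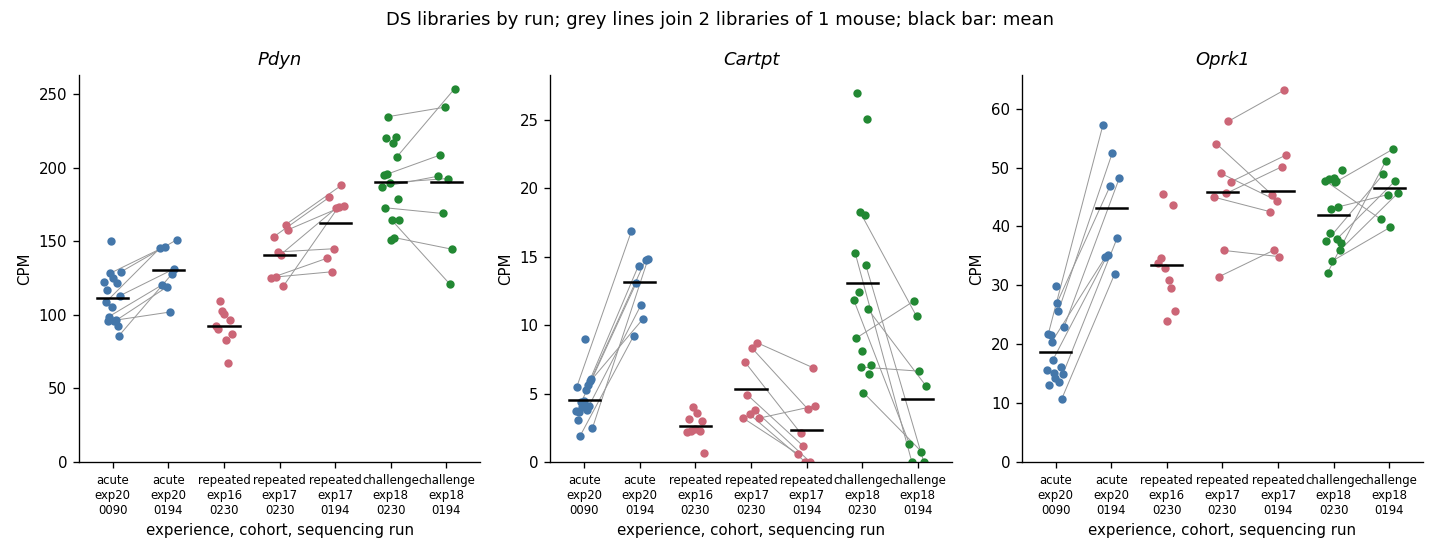
CPM of Pdyn, Cartpt and Oprk1 in DS libraries by experience, cohort and run; dots are libraries, black bars are means and grey lines join the 2 libraries of a mouse. The lines of Cartpt slope down towards run0194 in 7 of 8 repeated and 7 of 8 challenge mice and up in all 8 acute mice, and Pdyn of cohort 16 (67.6 to 110 CPM) lies below cohort 17 (119 to 161 CPM) in run0230.

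Penk and Tac1, the indirect- and direct-pathway peptides, were not called between experiences in run0194. Penk was higher after repeated (0.11, adjusted p = 0.00664) and challenge cocaine (0.21, 3.71e-07), both under the fold limit. Tac1 was at -0.11 and 0.11 (0.135 and 0.109), and challenge exceeded repeated by 0.22 (0.00345), under the fold limit. The repeated difference of Tac1 turned to 0.33 (7.96e-06) in the mice without a run0194 library, which compare run0090 with run0230, and all 8 acute mice read higher in run0194 than in run0090 (median log2 0.225). Oprl1 was not called. Of the 12 striatal markers, 2 rose and 2 fell after repeated cocaine and 2 rose and 4 fell after challenge in these libraries, while all 4 oligodendrocyte markers fell after challenge (median -0.481) and 4 of 4 tested blood markers rose (median 0.64). Their part in the Pdyn difference was not tested.

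In the Amy, the striatal-type peptides fell. Acute and repeated mice shared run0255, and Pdyn, Penk and Tac1 were called, 3 of 7 members tested (background 9.1%). Penk stood at 759, 995 and 1134 CPM (lowest, median and highest of 8) in acute mice and at 486, 563 and 857 in repeated mice, 7 of which were below every acute mouse (-0.66, SE 0.0843, edgeR adjusted p = 2.72e-07). Tac1 went from 81.8, 89.99 and 99.0 to 44.9, 55.3 and 69.0 CPM without overlap (-0.65, SE 0.0705, adjusted p = 1.83e-08). Pdyn went from 68.6, 71.9 and 85.7 to 38.5, 51.4 and 67.4 CPM, also without overlap (-0.51, SE 0.0958, 0.000202). Cartpt (-0.03, 95% interval -0.27 to 0.20), Pnoc and Oprl1 were not called, nor was Oprk1 (0.25, 0.136).

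After challenge the same 3 genes were low again in the Amy, and 6 of the 7 members tested were called (background 13.7%). These challenge libraries came from run0006 and run0215, so run and experience cannot be told apart, and both comparisons use the same acute mice. Penk stood at 486, 592 and 758 CPM in the 9 mice compared, all below the acute range (-0.64, adjusted p = 5.41e-08), and Tac1 at 53.5, 64.1 and 67.7, again without overlap (-0.51, 8.86e-08). Pdyn stood at 40.3, 48.1 and 70.7, with 8 of 9 mice below the acute range (-0.44, 0.000289). Among the 6 challenge mice outside the comparison, Penk reached 891 and Tac1 80.3 CPM. Cartpt fell from 52.9, 66.3 and 103 to 36.6, 48.1 and 80.7 (-0.46, 0.00231) and Pnoc from 27.0, 31.7 and 35.2 to 20.1, 27.3 and 29.4 (-0.28, 0.0164), with overlap in both. Oprk1 rose instead, from 14.4, 18.8 and 28.2 to 20.2, 25.3 and 31.4 (0.48, SE 0.107, 0.000689). The Cartpt call was lost with the challenge libraries of run0215 alone (-0.36, 0.0526), and the Pnoc call with those of either run alone (0.0535 and 0.0687) and without any of 4 single mice, which left it under the fold limit: Amy acute 2 hr replicate 2, challenge 0 hr replicate 3, challenge 1 hr replicate 2 or challenge 2 hr replicate 4.

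Markers of the striatum and the cortex moved along with these peptides in the Amy. Of the 12 striatal markers 8 fell after repeated cocaine (median -0.486) and 10 after challenge (-0.785), with sums of 901 to 1314 CPM in acute, 676 to 976 in repeated and 638 to 769 in challenge mice. All 3 indirect-pathway markers fell in both (medians -1.3 and -1.38), and so did the 2 cholinergic markers tested (-2.47 and -2.07). Cortical markers rose, 3 of 4 tested after repeated cocaine and 4 of 4 after challenge, with sums of 588 to 848, 957 to 1235 and 997 to 1446 CPM. The amygdala markers Prkcd and Rspo2 summed to 94.01 to 137, 97.2 to 137 and 101 to 152 CPM. Per CPM of the striatal sum, Penk was 0.789 to 0.919 in acute, 0.690 to 0.878 in repeated and 0.762 to 1.05 in challenge mice, ranges that overlapped. The part of the dissected tissue's makeup in the falls was not tested.

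The LH served as a comparison in the same run. There 0 of 7 members were called after repeated cocaine (background 4.37%), with 1 at an unadjusted p under 0.05 (Tac1, 0.24, adjusted p = 0.148) and 0 by DESeq2. The difference between Amy and LH in the repeated minus acute change was itself tested in run0255, where both structures came from the same 16 animals: it was called for Tac1 (-0.88, SE 0.148, adjusted p = 0.000331) and Penk (-0.50, SE 0.131, 0.0427) against a background of 0.721%, and not for Pdyn (-0.40, 0.116). With the animal as a block, Tac1 was at -0.86 (adjusted p = 4.24e-05), Penk at -0.50 (0.0137) and Pdyn at -0.40 (0.0806), with 0.953% of genes called. Both of these fits, with and without the block, were chosen after seeing the data. After challenge, across runs, 1 of 7 members was called in the LH (background 15.7%). Tac1 stood at 97.6, 123 and 141 CPM in acute mice and at 169, 198 and 219 in 7 challenge mice, without overlap (0.65, SE 0.105, 8.12e-06). It was called with the challenge libraries of run0006 alone (0.69, 8.68e-06) and of run0215 alone (0.58, 0.00498). Repeated mice spread over both ranges (96.3, 137 and 201). Of 11 striatal markers tested 5 fell in the LH challenge mice, 3 of 4 oligodendrocyte markers fell and 2 of 3 GABAergic markers rose; their part in the Tac1 difference was not tested.

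**Figure D4:**
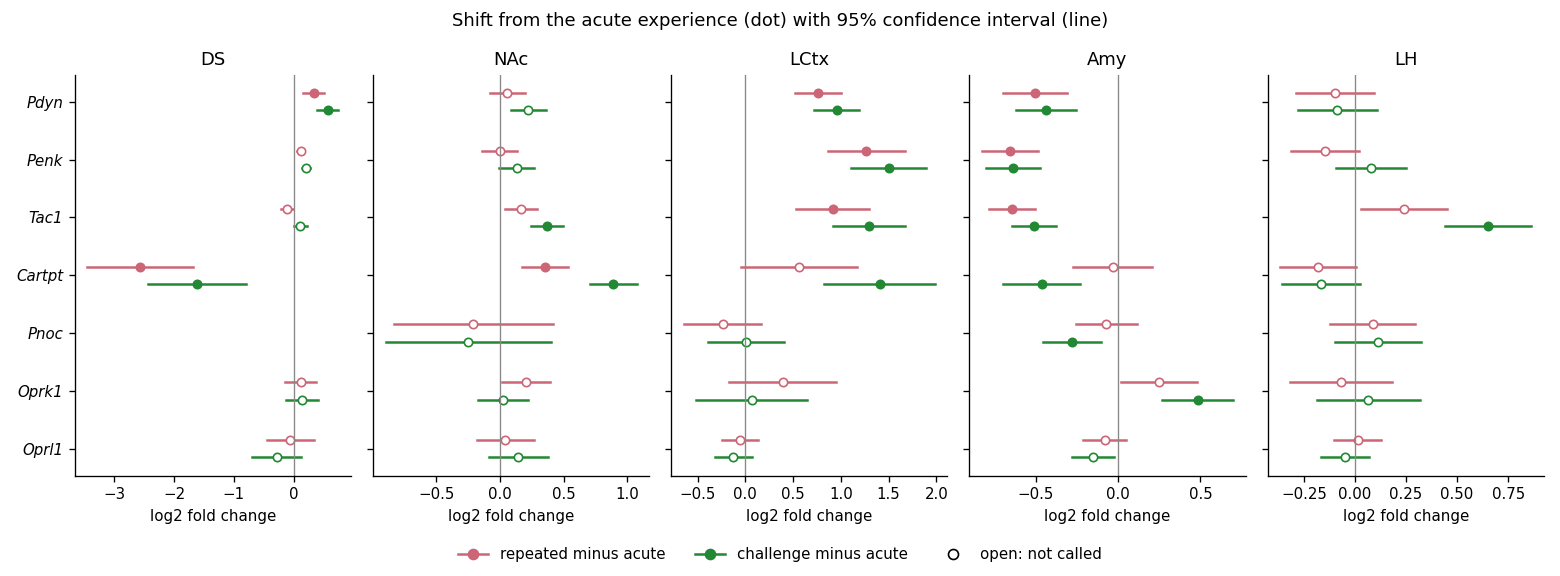
Log2 fold change with its 95% interval for 7 members in 5 structures, repeated (red) and challenge (green) against acute mice; filled dots are called, and the x axes differ between structures. Penk, Tac1 and Pdyn lie left of 0 in the Amy and right of 0 in the LCtx, and Cartpt lies right of 0 in the NAc and left of 0 in the run0194 libraries of the DS.

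In the LCtx Penk, Tac1 and Pdyn were higher in repeated and challenge than in acute mice. Acute, repeated and challenge LCtx libraries came from different runs (run0250, run0222, and run0006 with run0215), so that run and experience cannot be told apart. 3 of 7 members were called after repeated cocaine (background 3.7%) and 4 after challenge (15.3%), all higher. Penk stood at 50.4 to 76.5 CPM in 6 of the 7 acute mice compared, with LCtx acute 1 hr replicate 2 at 262, at 165 to 246 in 7 repeated mice and at 187 to 273 in 8 challenge mice (1.27, SE 0.199, adjusted p = 1.4e-05; 1.5002, SE 0.196, 1.73e-07). Tac1 stood at 26.5 to 34.7 with that mouse at 128, then 69.3 to 98.5 and 80.7 to 119 (0.92, 0.00118; 1.30, 1.14e-06). The acute mouse outside the comparison, naive replicate 3, stood at 54.8 CPM of Penk and 35.0 of Tac1. Apart from the acute 1 hr replicate 2, no acute mouse reached the range of either later group for these genes.

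Pdyn and Cartpt showed the same order. Pdyn stood at 26.2 to 34.2 CPM with LCtx acute 1 hr replicate 2 at 57.9, then 48.0 to 72.0 and 55.8 to 84.4 (0.76, adjusted p = 1.56e-05; 0.96, 4.99e-08). Cartpt stood at 7.27 to 16.2 with that mouse at 71.7, then 18.7 to 32.0 and 33.1 to 51.6. It was called after challenge (1.41, 0.00033) and not after repeated cocaine (0.56, 0.397), but without LCtx acute 1 hr replicate 2 the repeated difference was 1.40 (2.46e-09) and the challenge difference 2.26. Without that mouse the Penk differences were 1.73 and 1.98 and those of Tac1 1.35 and 1.74. Pnoc, Oprk1 and Oprl1 were not called in either. Pdyn and Tac1 were lower in the LCtx than in the Amy of naive mice (-1.22 and -1.45, across run0250 and run0255), and in the challenge libraries of run0006 and run0215, which hold both structures, Pdyn was higher in the LCtx by 0.32 (adjusted p = 0.000312) and Tac1 by 0.63 (1.17e-15). Here too run and experience cannot be told apart.

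Striatal markers rose in the same LCtx libraries: 8 of 12 after repeated cocaine (median 0.686) and 10 of 12 after challenge (0.878), with sums of 441 to 533 CPM in the 6 acute mice, 731 to 830 in repeated and 671 to 825 in challenge mice. Of the 3 indirect-pathway markers 1 rose after repeated cocaine and 3 after challenge, with sums of 3.60 to 8.89 CPM in the same 6 acute mice, 17.6 to 31.4 in repeated and 22.4 to 36.8 in challenge mice. Astrocyte markers summed to 148 to 182, 195 to 242 and 205 to 267 CPM, and choroid plexus markers to 2.79 to 6.15, 46.7 to 69.3 and 5.11 to 135 CPM. None of the 5 cortical markers was called in the fit with all 7 acute mice; in the same 6 acute mice their sum was 1654 to 1939 CPM, against 1435 to 1606 in repeated mice, without overlap, and 1395 to 1925 in challenge mice. Blood markers differed most, with all 5 lower in both later groups (medians -4.51 and -4.26): their sums were 8484 to 14319 CPM in acute, 346 to 662 in repeated and 472 to 736 in challenge mice. Per CPM of the striatal sum, Penk was 0.111 to 0.144 in the acute mice other than replicate 2 at 1 hr, 0.222 to 0.303 in repeated and 0.266 to 0.346 in challenge mice, without overlap with acute. Tac1 was 0.0557 to 0.0769, 0.0933 to 0.121 and 0.105 to 0.155. Pdyn (0.0530 to 0.0707, 0.0646 to 0.0867 and 0.0737 to 0.103) and Cartpt (0.0151 to 0.0327, 0.0239 to 0.0424 and 0.0454 to 0.0724) overlapped with acute mice after repeated cocaine and not after challenge. The part of the dissection and of these cell types in the differences was not tested.

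**Figure D5:**
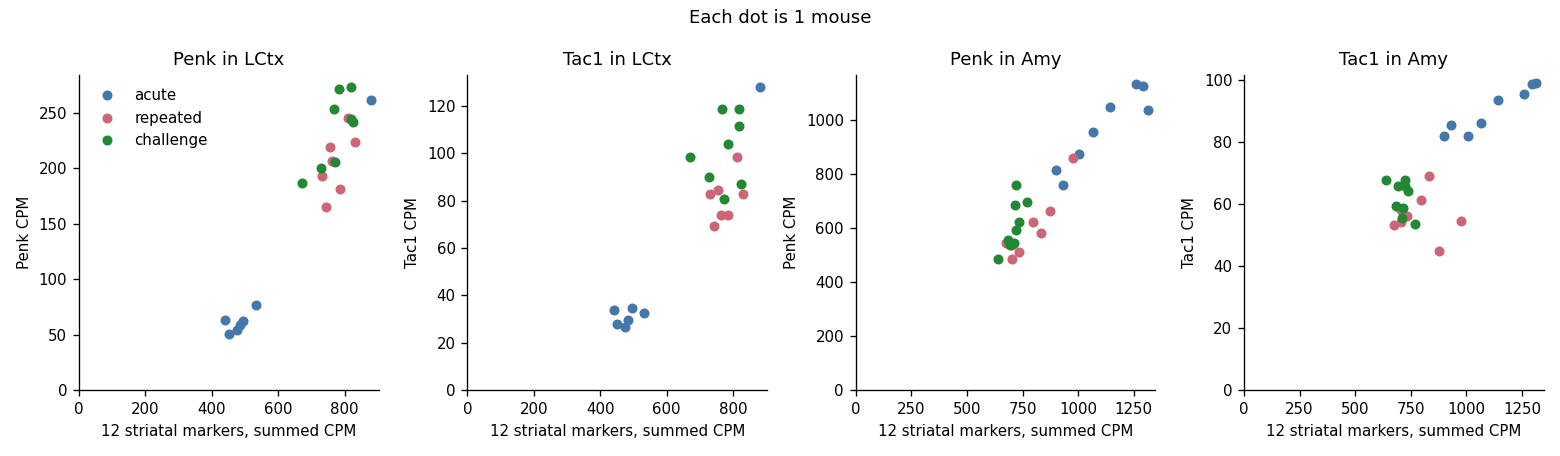
CPM of Penk and Tac1 (y axes) against the summed CPM of 12 striatal markers (x axes) in each LCtx and Amy mouse, by experience. In the LCtx repeated and challenge mice lie up and right of the acute mice, and in the Amy most of them lie down and left; 1 acute LCtx mouse (881 CPM of markers, 262 of Penk) lies apart.

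In the NAc, Cartpt rose after repeated and challenge cocaine and Tac1 after challenge. For Cartpt, acute mice stood at 289, 334 and 379 CPM (lowest, median and highest of 8), repeated mice at 354, 421 and 502, and challenge mice at 424, 550 and 822. Of the repeated mice 6 of 8 were above each of the 8 acute mice compared (0.35, SE 0.0899, edgeR adjusted p = 0.0146), and all 8 challenge mice were (0.89, SE 0.0903, 1.87e-09). Of the 6 acute mice outside the comparison 1 reached 451 CPM, within both ranges. It was 1 of 7 members called after repeated cocaine (background 3.23%), and Cartpt and Tac1 were the 2 of 7 called after challenge (19%). The NAc comparisons were across runs (run0010, run0222, and run0006 with run0215), where run and experience cannot be told apart. With the challenge libraries of run0006 alone the Cartpt difference was 0.61 (1.32e-06), and with those of run0215 alone it was 1.00 (3.3e-10).

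Tac1 stood at 753, 949 and 1038 CPM in acute and at 1032, 1090 and 1330 in challenge mice of the NAc, 7 of 8 above each of the 8 acute mice compared (0.37, SE 0.0626, adjusted p = 2.26e-05). Of the acute mice outside the comparison, 3 stood above 1038 CPM (1058, 1097 and 1108), and 4 of the 6 challenge mice outside it stood at 902 to 1033. With every library summed per mouse the difference was 0.26, under the fold limit. Pdyn (0.22, 0.0127, under the fold limit) and Penk (0.13, 0.152) were not called after challenge, although Pdyn was highest in this structure among naive mice. Cortical markers rose beside Cartpt, 2 of 5 after repeated cocaine and 5 of 5 after challenge (median 1.18; sums 33.7 to 390, 102 to 453 and 159 to 491 CPM), all 4 oligodendrocyte markers fell after challenge (median -0.669; sums 5325 to 6847 against 3026 to 4082 CPM) and 4 of 4 tested blood markers rose. Of the 12 striatal markers 1 rose and 1 fell after challenge. The part of these in the Cartpt and Tac1 differences was not tested.

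A smaller set, at 0 hr only, compared mice with no cocaine on the day. These are the 0 hr mice of the comparisons above, 2 or 3 per group, and thus not independent of them. As there, run and experience cannot be told apart in the NAc and LCtx, nor for the abstinent mice of the Amy. After repeated cocaine 4 of 7 members were called for LCtx (background 1.39%) and 1 for Amy (0.26%). None was called for DS (0 of 6, background 1.33%), NAc (0 of 7, 0.0817%) or LH (0 of 7, 1.64%). At an unadjusted p under 0.05 there were 2 in the DS (Pdyn and Cartpt), 1 in the NAc (Pnoc) and 0 in the LH, and DESeq2 called 0 in each of these 3 and also 0 in the Amy. In abstinent mice 4 of 7 were called for LCtx (8.36%), 4 for Amy (3.47%), 1 for NAc (2.81%) and 1 of 6 for DS (2.57%), of which DESeq2 called 4, 3, 1 and 0, while the LH had a single abstinent mouse and was not tested.

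In the LCtx Penk stood at 76.5 and 54.0 CPM in naive, 246 and 182 in repeated and 200 and 187 in abstinent mice (1.67, adjusted p = 3.44e-11; 1.61, 1.7e-10). Pdyn (0.93 and 0.98), Tac1 (1.51 and 1.72) and Cartpt (1.30 and 2.09) were called as well. Cartpt after repeated cocaine was lost without LCtx naive replicate 1 (adjusted p = 0.0832) or repeated replicate 1 (0.385). The differences were thus seen in mice 24 hr and 21 days from their last dose. The naive, repeated and abstinent libraries were of run0250, run0222 and run0215, so run and experience cannot be told apart here.

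In the Amy Penk stood at 873 and 1048 CPM in naive, 486 and 623 in repeated and 486, 695 and 537 in abstinent mice (-0.77, 0.0032; -0.72, 0.000211). In abstinent mice Pdyn (-0.64, 0.011), Tac1 (-0.45, 0.0363) and Cartpt (-0.81, 0.00262) were called too. The Penk call after repeated cocaine was lost without naive replicate 2 (adjusted p = 0.317) or repeated replicate 1 (0.221). In abstinent mice, the Pdyn call was lost without either naive mouse or abstinent replicate 1 (0.0763 to 0.152), the Tac1 call without either naive mouse or abstinent replicate 2 (0.113 to 0.345) and the Cartpt call without naive replicate 1 (0.295).

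NAc Cartpt was higher in abstinent (424 and 513 CPM) than in naive mice (324 and 376), without overlap (0.45, SE 0.121, adjusted p = 0.0488), a call lost without any mouse of the fit other than abstinent replicate 1 (0.0723 to 0.398). DS Cartpt was lower in abstinent (1.31 and 0.770 CPM) than in naive mice (14.4 and 11.5) of run0194 (-3.52, SE 0.911, 0.0344). That call was lost without any of its 4 mice (0.109 to 0.575) and was absent over every 0 hr DS mouse in all runs, where the difference was -0.03 (0.974).

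Of the other genes of the pathway, the peptide processing list (Pcsk1, Pcsk2, Cpe, Pam, Scg5, Pcsk1n, Scg2, Chga and Chgb) holds enzymes and granins that cut and pack the precursors. For this and the lists that follow, the NAc and LCtx comparisons, and those after challenge in the Amy and LH, are across runs. There, run and experience cannot be told apart. After challenge 3 of 9 rose in the DS and none fell, where 17.8% of all genes were called, with Scg2 at 0.66 (SE 0.0616, adjusted p = 9.57e-14) and Pam at 0.57. In the NAc 2 of 9 rose (Pcsk1 0.96, Scg2 0.45; background 19%), in the LCtx 1 (Scg2 0.45; 15.3%), in the Amy 2 rose (Pcsk1 0.72, Chgb 0.33; 13.7%) and 1 fell, and in the LH 2 rose (Scg2 0.51, Pcsk1 0.44; 15.7%) and 1 fell. The list's median lay between 0.0166 (LCtx) and 0.138 (NAc), against -0.00747 to 0.00642 over all genes. After repeated cocaine 1 rose in the DS (Pcsk1n 0.30; background 14.3%) and none was called in the other 4 structures. Pcsk1, the prohormone convertase, was also the list's member called in the DS time course after challenge (1.08, adjusted p = 0.035), and Chgb was called there after acute cocaine (0.49).

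Of 6 peptide degrading enzymes (Mme, Ace, Anpep, Npepps, Dpp3 and Ece1), 4 were tested in each structure. 1 fell in the Amy after repeated cocaine (Mme, or neprilysin, -0.83; background 9.1%), 1 there after challenge (Ece1 -0.37; 13.7%) and 2 in the LH after challenge (Ace -0.51, Ece1 -0.42; 15.7%), and none was called in the other 7 comparisons with acute mice. Of 4 other ligands and tachykinin receptors (Pomc, Tac2, Tacr1 and Tacr3), 2 of 4 tested in the Amy were called after repeated cocaine (background 9.1%), 1 of 4 there after challenge (13.7%) and 2 of 3 in the LCtx after challenge (15.3%). Tac2 fell in the Amy after repeated (-0.38) and challenge cocaine (-0.27), Tacr3 fell there after repeated cocaine (-0.56), and Tac2 (0.59) and Tacr1 (1.21), the substance P receptor, rose in the LCtx after challenge. Of 15 receptor signalling genes (inhibitory G protein subunits, Kcnj channels, Rgs proteins, arrestins, receptor kinases and Adcy5), 14 were tested in each structure. After challenge the DS had 1 higher and 3 lower (background 17.8%), the Amy 2 higher and 3 lower (13.7%), the LCtx 1 higher and 1 lower (15.3%), the LH 1 lower (15.7%), and none was called in the NAc (19%). After repeated cocaine the DS had 2 lower (14.3%), the Amy 1 higher and 2 lower (9.1%), the LCtx 1 higher (3.7%), the NAc 1 lower (3.23%), and none was called in the LH (4.37%). Rgs9 fell in the Amy (-0.37 and -0.82) and rose in the LCtx (0.68 and 0.94), and Adcy5 fell after challenge in the DS (-0.32), Amy (-0.51) and LH (-0.44). Both also belong to the 12 striatal markers. Gnai3, an inhibitory G protein subunit, fell in the DS after repeated (-0.40) and challenge cocaine (-0.46), and after acute cocaine in the time course (-0.44).

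The genes most like each member over the 60 group means are given with Pearson's r as a description, since the groups share structure, run and depth. For Penk they were Dlx6 (0.977), Foxp2 (0.973) and Rxrg (0.970), for Tac1 Pcp4l1 (0.977), Hmgn1 (0.969) and Pde1c (0.963), and for Pdyn Ppp1r2 (0.956), Upb1 (0.948) and Syndig1 (0.946). Oprk1 was nearest to Gad2 and Pbx3 (both 0.949) and Sv2c (0.947), Cartpt to Kcnip1 (0.942), Olfm3 (0.926) and Trhr (0.923). Ngb was among the 3 nearest of both Pnoc (0.985) and Oprl1 (0.983). Oprm1 and Oprd1, the thinly counted members, had no gene above 0.763 (Sgce) and 0.724 (Mkl2). Within the DS, as deviations of 48 libraries from their group means, Pdyn was nearest to Nnat (0.867), Col6a1 (0.816) and Top2a (0.783), genes other than those it resembled across structures. The repeated groups mix cohorts 16 and 17, whose Pdyn differed, so these deviations carry the cohort difference.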

How the data were processed

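Slices of 400 µm were dissected, and 3′-RNA-seq libraries with 8 base unique molecular identifiers were made from 100 ng of RNA. The deposited values are raw counts per gene and library, which the authors made with STAR on GRCm38 and HTSeq (versions not given in the sources used here). The methods describe the largest libraries as thinned to 50% of their reads, and the largest deposited total was 10367769. The methods do not state whether reads were counted by strand, so antisense reads may be among the counts. No column was left unused (0). The p-values measure the spread between mice.

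Counts were tested with edgeR 4.0.16 (quasi-likelihood F test, filterByExpr by group, TMM) in R 4.3.3, over all genes passing the filter, with Benjamini-Hochberg adjustment. Naive structures shared 1 fit. Time courses used a joint F test of 1, 2 and 4 hr, and single 4 hr LCtx mice were left out. Experiences were compared with time as a factor, in the DS within run0194 and elsewhere in the libraries that the study's sample list marks for baseline. The scripts were tested on simulated data. Alternatives were DESeq2 1.42.0, RLE size factors, no filter, a fold of 1.5, other library sets, run as a term, a replicate block and leaving out each mouse. In the time courses all mice of a replicate number were left out together.

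The named genes are the 9 members in every comparison, the 3 genes with the highest Pearson correlation to each over group means of log2(CPM + 1), for genes with a mean of at least 5 CPM (for Pdyn, Penk and Tac1 also over DS deviations), and for pathway lists the 2 largest folds among those called. The members and lists were chosen with earlier results of these data known. Floors are 3 counts, and intervals are 95%.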

Additional observations from a re-analysis of the deposited data

Results flagged for a closer look

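In groups of 4 to 10 mice, 10 member values of 115 groups tested lay far from the others of their group by Dixon's criterion, which chance gives in about 1 of 20 groups. Of these, 5 belonged to a single mouse, LCtx acute 1 hr replicate 2, with 57.9 CPM of Pdyn, 262 of Penk, 31.8 of Pnoc, 128 of Tac1 and 71.7 of Cartpt. The others were Pdyn at 84.4 CPM in LCtx challenge 1 hr replicate 1, Cartpt at 80.7 in Amy challenge 4 hr replicate 2, Oprk1 at 28.2 in Amy acute 2 hr replicate 2, Pnoc at 10.3 in NAc repeated 0 hr replicate 1 and Pnoc at 4.08 in naive NAc replicate 3.

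Tac1 differed between structures under the same contrast. After challenge the LH gave 0.65 against acute mice and the Amy -0.51, each without overlap, and this difference between structures was not tested. After repeated cocaine, the difference of the change between Amy and LH was tested within run0255 and called for Penk (-0.50) and Tac1 (-0.88). That test was chosen after seeing the data.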

How the results depend on the processing

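Of the calls of single members, 681 kept direction and threshold under an alternative setting, 43 lost the threshold and 11 reversed; of the uncalled values 55 became calls in the same direction and 2 in the other. Leaving out single mice, or in the time courses all mice of a replicate number, kept 1609, lost 53 and reversed 1. The reversed call was Penk in the LCtx acute time course, at -0.0889 without the LCtx mice numbered replicate 2. Its range without the mice of each replicate number was -0.0889 to 2.23. With run0006 and run0215, which hold LCtx, Amy and LH, the LCtx against Amy difference of Pdyn was 0.32 and of Tac1 0.63, and Pdyn LCtx against LH was 0.0883; over every mouse Tac1 LCtx against Amy was 0.14. Over every 0 hr mouse, Oprk1 in the abstinent DS was 0.64. In the DS, repeated minus acute reversed for Pdyn (-0.35 in mice without a run0194 library, -0.0096 over every mouse in run0090 and run0230), Tac1 (0.33) and Cartpt (0.23 in the same mice's other run), and Cartpt challenge minus acute was 0.82, 1.30, 1.61 and 1.47 with all libraries summed, the same mice's other run, the other mice and every mouse of run0090 and run0230. The last 3 library sets were chosen after seeing the data.

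The 66 naive calls were 61 with DESeq2 and 61 to 68 without single mice. DS time courses went from 0 calls to 1 with no filter and stayed at 0 without the mice of any replicate number. The 3 calls in other time courses became 9 with no filter, 0 with the stepwise test of the study, and 0 to 4 without the mice of a replicate number. The 5 calls at 0 hr after repeated cocaine were 4 to 7 without single mice, and the 10 in abstinent mice were 7 to 10. The 7 calls within 1 run became 11 with every library summed, 4 at a fold over 1.5, 11 in the same mice's other run and 14 in the other mice (7 to 8 without single mice). The 17 calls across runs became 10 at a fold over 1.5 and were 16 to 18 without single mice. The cause of these changes was not tested.

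Replicate numbers only named mice outside the naive animals (median correlation of same-numbered deviations -0.00519 to 0.0114). With a replicate block the counts were 65 (naive), 0 (DS time courses), 2 (other time courses), 9 (0 hr repeated), 9 (abstinent), 6 (within 1 run) and 16 (across runs). Only the naive fit was paired by animal. In the others the block joined mice that share a number only, and in run0194 these numbers were spread unevenly over the experiences. The calls lost within 1 run were Pdyn in the DS after repeated cocaine (0.30, adjusted p = 0.0737) and Cartpt there after challenge (-1.07, 0.242), and Penk there after challenge was gained (0.27). The LH time course without replicate 1 or 2 could not be fitted. Depth limits Oprm1, Oprd1 and, in the striatum, Pnoc.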

Other observations

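The list of 9 transcription factors and immediate-early genes (Creb1, Crem, Kcnip3, Fos, Fosb, Junb, Egr2, Arc and Nr4a1) was compared between experiences in the same libraries as the peptides. After challenge, 3 of 9 were higher than in acute mice in the DS and none lower, where 17.8% of all genes were called, with Fosb at 1.204 (SE 0.175, edgeR adjusted p = 1.17e-07) and Crem, a CREB-related factor, at 0.55. In the NAc 4 were higher (Fos 1.02, Crem 0.40; background 19%), in the LCtx 3 (Fosb 1.26, Fos 0.51; 15.3%), in the Amy 5 (Fosb 1.07, Fos 0.96; 13.7%), and in the LH 3 of 8 tested were higher (Fosb 1.23, Fos 0.69; 15.7%) and 1 lower. Outside the DS these comparisons are across sequencing runs, where run and experience cannot be told apart.

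After repeated cocaine 4 were lower than in acute mice of the DS and 1 higher (background 14.3%), with Egr2 at -1.05 (SE 0.181, adjusted p = 8.76e-06) and Fos at -1.02. In the NAc 1 was lower (Fosb -0.54; background 3.23%), and edgeR called 0 in the LCtx, Amy and LH. Within run0194, 6 of 9 were higher after challenge than after repeated cocaine and 1 lower (Fosb 1.19, Egr2 0.96; background 4.05%), while of the opioid peptide genes tested there none was called in that contrast. Pdyn, Penk and Tac1 reached an unadjusted p under 0.05 in it by edgeR, and Pdyn was called in the same contrast within run0230. The difference between the 2 lists was not tested.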
